A study of Mus musculus with 675 samples.

Results

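Cholesterol and lipoprotein handling was followed through 8 genes of 46517 gene identifiers, chosen by name: the receptors Lrp1 and Scarb1, the ABC transporters Abca1 and Abca8a, the apolipoproteins Apoe and Apod, the lipid droplet coat protein Plin2 and the fatty acid desaturase Scd2. Each symbol matched exactly 1 Ensembl identifier of GRCm38. The genes lie apart in the genome, with Lrp1 at chr10:127538161-127621148, Scarb1 at chr5:125277087-125341094, Abca1 at chr4:53030787-53159895, Abca8a at chr11:110025634-110095978, Apoe at chr7:19696109-19699188, Apod at chr16:31296192-31314808, Plin2 at chr4:86648386-86670060 and Scd2 at chr19:44293674-44306864. Of the 8, Scd2 is on the plus strand and the others on the minus strand. Smart-seq2, in which full-length cDNA from a cell sorted into a well is amplified, gave read counts per gene for single cells. The mice were C57BL/6 males, 10 weeks old, and the series design speaks of adult males of 8 to 21 weeks. By the labels 54.4% of the cells are from 2 mice (pool A) and 45.6% from 2 other mice (pool B). Cells of a pool also share a prefix in their titles, followed by a well, which is read here as 1 plate per pool although the labels do not say so. The tissue label is aorta, while heart is the organ named in the protocol, which used a skeletal muscle dissociation kit and collagenase, and no sort gate is named. No cell was treated, and the comparisons are between cell classes found by clustering. The clustering did not use the 8 genes.

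Vessel wall cells take up cholesterol carried in lipoproteins through surface receptors, store the surplus as esters in lipid droplets, and return it to the circulation by passing it to lipid-poor apolipoprotein A-I or to high density lipoprotein. Lrp1 encodes a large endocytic receptor that binds apolipoprotein E, proteases and their inhibitors, and Scarb1 encodes SR-BI, the receptor that exchanges cholesterol ester with high density lipoprotein. Abca1 encodes the transporter that loads apolipoprotein A-I with cholesterol and phospholipid, and is a textbook target of the oxysterol-sensing liver X receptors. In the artery, loss of these functions is best known from atherosclerosis, where cholesterol-laden macrophages and smooth muscle cells become foam cells.

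The classes were smooth muscle-like cells (581 cells, or 85.01% of pool A and 87.3% of pool B), fibroblast-like cells (67 cells, 39 and 28) and endothelial-like cells (27 cells, 16 and 11). Of 8 smooth muscle markers, all 8 reached 100 CPM, the counts of a gene scaled to a total of 1000000, in both pools of smooth muscle-like cells. So did 8 of 8 fibroblast markers in fibroblast-like cells and 8 of 8 endothelial markers in endothelial-like cells. These markers helped to form and name the clusters, so the counts do not test the names. In both pools, 4 of 8 smooth muscle markers also reached 100 CPM in fibroblast-like and 5 of 8 in endothelial-like cells. Summed smooth muscle markers were not absent elsewhere: their sums were 21128 and 19128 CPM in the smooth muscle-like class, 1891 and 3561 CPM in the fibroblast-like and 2230 and 3336 CPM in the endothelial-like class. The endothelial-like class also held 113.3 and 1179 CPM of summed fibroblast markers, 520.4 and 2371 CPM of pericyte markers and 7.46 and 620.1 CPM of erythroid markers. Its summed adipocyte markers were 96.3 and 104.8 CPM with Adipoq and Lep at 0, and summed macrophage markers in the smooth muscle-like class were 30.7 and 10.1 CPM. Beyond alternatives that left out wells with markers of other types or endothelial-like cells high in Rgs5, their part in the results was not tested. The counts summed per pool ranged from 87778885 to 92031927 in smooth muscle-like, from 4002297 to 6670044 in fibroblast-like and from 2109204 to 3353358 in endothelial-like cells. The pool is the replicate, so every comparison has n = 2, and the mice and the plate of a pool are 1 factor. Because the same cells were clustered and tested, the tests are not independent of the classes even though the 8 genes did not form them.

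Promoter sequences were at hand for 6 of the 8 genes in the RefSeq table of GRCm38.p6, and not for Scarb1 and Scd2. Shown here are the 250 bases before the start, 5′ to 3′ on the gene's strand, of the 4 genes with a single listed start that were lower in smooth muscle-like than in fibroblast-like cells. Apoe, also lower, has 3 listed starts and is not shown. Capitals mark matches on either strand to the E-box CACGTG, the TATA box TATAAA, the GC box GGGCGG or the CCAAT box CCAAT.
Lrp1, chr10:127621149-127621398, minus strand: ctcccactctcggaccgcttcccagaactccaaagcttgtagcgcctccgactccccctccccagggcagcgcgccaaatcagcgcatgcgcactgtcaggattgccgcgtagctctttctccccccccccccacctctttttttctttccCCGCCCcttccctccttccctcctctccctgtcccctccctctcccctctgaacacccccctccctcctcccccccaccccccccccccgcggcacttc
Abca1, chr4:53159896-53160145, minus strand: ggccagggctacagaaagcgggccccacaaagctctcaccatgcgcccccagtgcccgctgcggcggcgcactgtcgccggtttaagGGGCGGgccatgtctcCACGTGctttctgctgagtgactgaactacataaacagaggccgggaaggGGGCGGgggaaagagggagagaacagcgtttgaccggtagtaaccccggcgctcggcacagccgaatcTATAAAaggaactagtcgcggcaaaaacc
Abca8a, chr11:110095938-110096187, minus strand: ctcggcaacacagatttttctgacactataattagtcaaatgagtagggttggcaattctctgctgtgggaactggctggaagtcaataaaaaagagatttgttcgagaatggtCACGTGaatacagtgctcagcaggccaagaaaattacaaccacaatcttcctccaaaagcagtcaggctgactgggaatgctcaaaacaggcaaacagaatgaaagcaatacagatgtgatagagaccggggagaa
Apod, chr16:31314809-31315058, minus strand: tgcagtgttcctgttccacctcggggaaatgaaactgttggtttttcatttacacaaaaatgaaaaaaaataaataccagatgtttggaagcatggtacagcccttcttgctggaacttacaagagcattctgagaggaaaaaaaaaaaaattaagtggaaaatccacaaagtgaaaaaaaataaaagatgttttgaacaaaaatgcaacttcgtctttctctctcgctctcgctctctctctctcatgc
The windows of Abca1 and Abca8a each hold 1 CACGTG, at positions -147 and -136 counted from the start, and this motif is in 6.02% of the 32851 promoter windows of the table. Abca1 also has TATAAA at -29 (12.4% of windows hold it) and GGGCGG at -163 and -97 (32.7%). Lrp1 has 1 GGGCGG, on the opposite strand. The Apod window has none of the 4, and its GC content was 36.4%, against 67.2% for Lrp1, 61.6% for Abca1, 43.2% for Abca8a and a median of 52.4% over all windows. The sterol response element TCACNCCAC (1.05% of windows) and the CArG box of serum response factor (1.47%) were matched in none of the 6 genes' windows. Nor was the DR4 direct repeat read by liver X receptors, which was searched only as a perfect repeat (0.0152% of windows). This says only that these letters are not there. DR4 sites with mismatches were not searched for, so whether the Abca1 window holds one was not tested. CCAAT, in 33.8% of windows, was matched in the window of Plin2 alone among the 6.

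Smooth muscle-like cells held less of 5 of the 8 transcripts than fibroblast-like cells: Lrp1, Abca1, Abca8a, Apoe and Apod. None of the 8 was called higher. Levels of Scarb1, Plin2 and Scd2 did not pass the test. Of 8671 tested genes 7.31% were called, 3.38% higher and 3.93% lower (edgeR quasi-likelihood F test with the pool as a block, Benjamini-Hochberg adjusted p under 0.05). Against endothelial-like cells, smooth muscle-like cells had more Lrp1 and less Apoe, so 2 of 8 genes were called, where 5.12% of 7095 genes were called, 2.37% higher and 2.75% lower. Fibroblast-like cells had more Lrp1, Abca8a and Apod and less Plin2 than endothelial-like cells, so 4 of 8 were called, where 4.47% of 7095 genes were called, 2.31% higher and 2.16% lower. The 2 comparisons with endothelial-like cells share those cells' sums and are not independent. The 8 genes were chosen with earlier results of these data known, so their counts of calls are no test of lipid genes as a group.

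**Figure D1:**
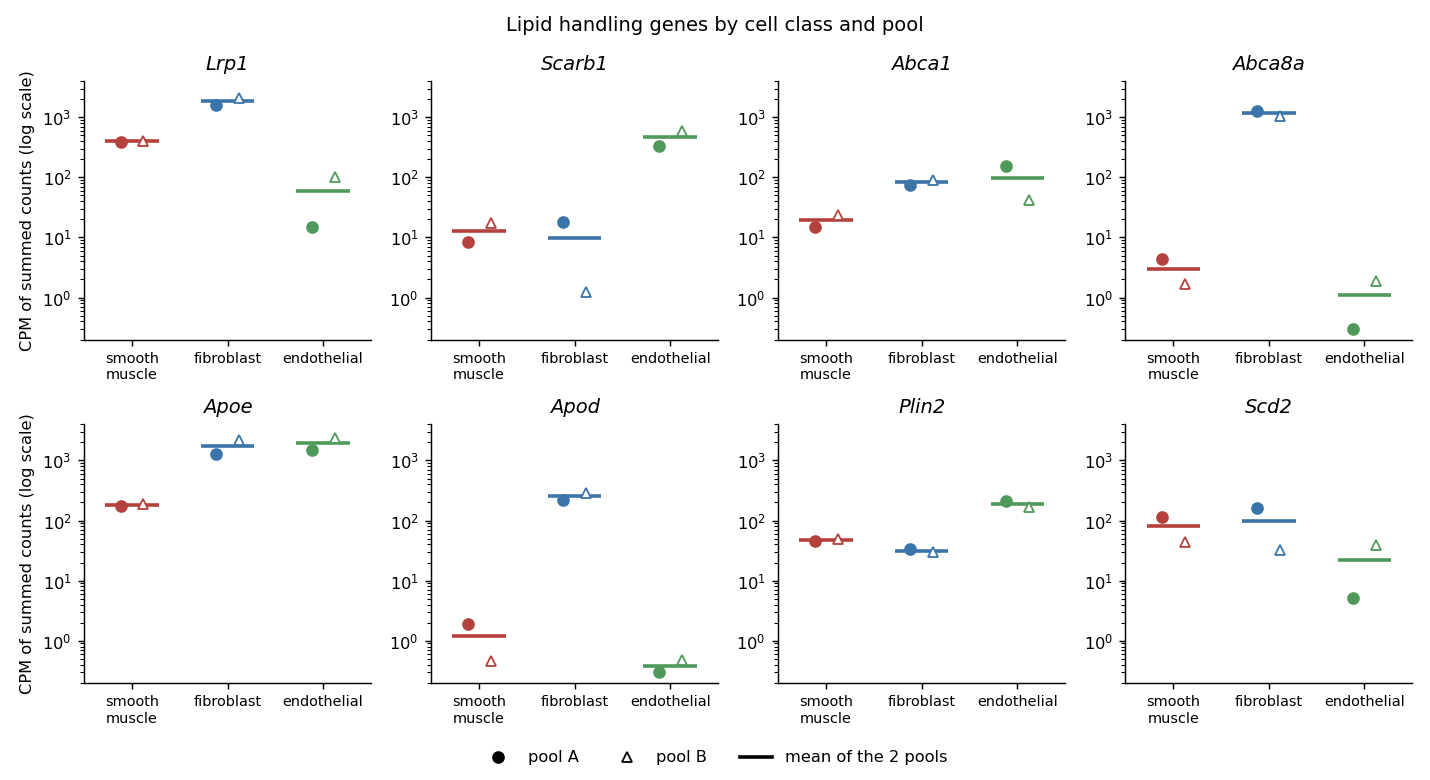
CPM of the counts summed over the cells of a class, on a log axis, for the 8 genes. Circles are pool A, triangles pool B and bars their mean, with smooth muscle-like, fibroblast-like and endothelial-like cells from left to right; Abca8a and Apod exceed 200 CPM in fibroblast-like cells only, where each other class is under 5 CPM, and Scarb1 exceeds 300 CPM in endothelial-like cells only.

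Lrp1 was a transcript of nearly every mural and stromal cell. In pools A and B it had 381 and 409.8 CPM in the smooth muscle-like, 1582 and 2071 CPM in the fibroblast-like and 14.9 and 101.5 CPM in the endothelial-like sums. The pools of the 3 classes do not overlap. The log2 fold change was -2.27 ± 0.21 (SE) for smooth muscle-like over fibroblast-like cells (edgeR adjusted p = 9.2e-05), 3.09 ± 0.67 for smooth muscle-like over endothelial-like cells (adjusted p = 0.0482) and 5.39 ± 0.72 for fibroblast-like over endothelial-like cells (adjusted p = 0.0098). At least 100 CPM was seen in 81.1% and 84.01% of smooth muscle-like cells, in every fibroblast-like cell and in 1 of 16 and 2 of 11 endothelial-like cells. The endothelial-like sums rest on few cells, since 1 cell held 62% of the Lrp1 counts in pool A and another 74.3% in pool B; without these 2 cells the levels were 5.98 and 30.4 CPM. The call against endothelial-like cells stood just under the threshold and was lost in 7 of 11 alternative settings, with adjusted p up to 0.218. The fold change was positive in all 11 but ranged from 1.35 (adjusted p = 0.0269), where classes came from clustering on all other genes, to 4.03 (adjusted p = 0.0029) without endothelial-like cells high in Rgs5. Summed fibroblast and pericyte markers of the endothelial-like class were higher in pool B, as was its Lrp1. Apart from the fit without cells high in Rgs5, a pericyte marker, their part in the result was not tested. The 4 smooth muscle-like clusters were much alike, at 353.5 to 405.6 CPM in pool A and 383 to 517 CPM in pool B. Across all cells, the genes most like Lrp1 were the collagen genes Col1a2, Col1a1 and Col3a1, with a Pearson r of log2(CPM + 1) averaged over the 2 pools, taken over all cells, of 0.51, 0.47 and 0.45. Col1a1 had helped to form the classes.

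Scarb1 was found mainly in endothelial-like cells, where SR-BI is known to move lipoproteins and cholesterol across the cell. It had 8.25 and 17.2 CPM in the smooth muscle-like, 18.3 and 1.25 CPM in the fibroblast-like and 329.2 and 600.7 CPM in the endothelial-like sums. Both endothelial-like pools lie above all 4 others, and smooth muscle-like and fibroblast-like pools overlap. The log2 fold changes of -5.27 ± 1.16 for smooth muscle-like over endothelial-like cells (edgeR adjusted p = 0.0506) and -5.59 ± 1.23 for fibroblast-like over endothelial-like cells (adjusted p = 0.0549) missed the threshold. Over 11 alternatives the first lay between -5.47 and -4.54 with 4 calls, and the second between -5.78 and -4.80 with 4 calls. At least 100 CPM was seen in 3.21% and 6.69% of smooth muscle-like cells, in 2 of 39 and 0 of 28 fibroblast-like cells, and in 9 of 16 and 8 of 11 endothelial-like cells. In fibroblast-like cells of pool A, 1 cell held 59.8% of the counts, and the smooth muscle-like minus fibroblast-like difference had opposite signs in the 2 pools, -1.19 in pool A and 3.64 in pool B on the log2 scale. The genes most like Scarb1 across cells were all ones with endothelial roles: Cdh5, the cadherin of endothelial junctions (r = 0.47), Adgrl4 (0.47) and Gpihbp1 (0.46), which carries lipoprotein lipase to the capillary lumen. Cdh5 had helped to form the classes.

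Abca1 reached 100 CPM in a minority of cells in every class. It had 15.1 and 23.5 CPM in the smooth muscle-like, 73.5 and 90.9 CPM in the fibroblast-like and 155.4 and 42.7 CPM in the endothelial-like sums. Both smooth muscle-like pools lie below the others, and fibroblast-like and endothelial-like pools overlap. The log2 fold change was -2.19 ± 0.51 for smooth muscle-like over fibroblast-like cells (edgeR adjusted p = 0.0287). That call was lost in 4 of 11 alternatives, with adjusted p up to 0.30 and log2 fold changes of -2.36 to -2.09. The differences from endothelial-like cells did not pass, at -2.34 ± 0.84 for smooth muscle-like (adjusted p = 0.181) and -0.10 ± 0.80 for fibroblast-like cells (adjusted p = 0.963). At least 100 CPM was seen in 5.77% and 10.04% of smooth muscle-like cells, in 5 of 39 and 8 of 28 fibroblast-like cells, and 6 of 16 and 2 of 11 endothelial-like cells. Without the highest cell of each pool, fibroblast-like cells averaged 59.6 CPM in place of 82.2 ± 12.4 CPM (SD, n = 2). No gene followed Abca1 closely across cells; the nearest were Xdh, which had helped to form the classes, Procr and Akap12, with r of 0.23, 0.22 and 0.22.

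Abca8a, a transporter of the ABCA subfamily whose relatives move lipids, was nearly limited to fibroblast-like cells. It had 4.35 and 1.65 CPM in the smooth muscle-like, 1255 and 1055 CPM in the fibroblast-like and 0.298 and 1.90 CPM in the endothelial-like sums, the last from 1 and 4 counts. Fibroblast-like pools lie far above all others, and the other 2 classes overlap. The log2 fold change was -8.80 ± 0.40 for smooth muscle-like over fibroblast-like cells (edgeR adjusted p = 1.2e-06) and 10.28 ± 0.92 for fibroblast-like over endothelial-like cells (adjusted p = 0.0018), and both calls held in all 11 alternatives. Since the second rests on so few endothelial-like counts, the ratio of CPM per pool is the safer measure. It was 4210 (exact 95% counting interval 755 to 166287) in pool A and 557 (217.2 to 2043) in pool B. At least 100 CPM was seen in 34 of 39 and 18 of 28 fibroblast-like cells and in 1 smooth muscle-like cell of each pool. In pool A that single smooth muscle-like cell held 72.8% of the class's Abca8a counts. It carried 4 of 5 Schwann cell markers at 100 CPM or more and 53.6 CPM of Myh11, the smooth muscle myosin heavy chain, and without it pool A had 1.19 CPM. The genes most like Abca8a across cells were Dpep1 (r = 0.76), Svep1 (0.75) and Cygb (0.74), of which Dpep1 had helped to form the classes.

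Apoe was plentiful in fibroblast-like and endothelial-like cells and about 10 times lower in smooth muscle-like cells. It had 171.4 and 185.98 CPM in the smooth muscle-like, 1284 and 2165 CPM in the fibroblast-like and 1476 and 2357 CPM in the endothelial-like sums. Both smooth muscle-like pools lie below the others, which overlap. The log2 fold change was -3.29 ± 0.25 for smooth muscle-like over fibroblast-like cells (edgeR adjusted p = 2.4e-05) and -3.45 ± 0.30 for smooth muscle-like over endothelial-like cells (adjusted p = 0.0021), both called in all 11 alternatives. It was -0.08 ± 0.27 for fibroblast-like over endothelial-like cells (adjusted p = 0.911). At least 100 CPM was seen in 28.8% and 45.7% of smooth muscle-like cells, in 27 of 39 and 25 of 28 fibroblast-like cells and in 14 of 16 and 11 of 11 endothelial-like cells. The smooth muscle-like sums thus join cells with little and cells with much Apoe. In pool A the median cell had 8.66 CPM, the highest 9684 CPM, and 15 cells held most of the counts. Pool B had a median of 71.2 CPM, a highest of 3633 CPM and 24 cells that held most of the counts.

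Some of the highest Apoe values in the smooth muscle-like class came from wells with markers of other cell types. The highest well carried 6 of 8 macrophage markers and 836 CPM of Plin2, and 1 with all 5 mast cell markers had 5983 CPM of Apoe. All 3 wells with Schwann cell markers, at 2370, 2798 and 4094 CPM of Apoe, also had 571 to 1247 CPM of Scd2. These 5 wells, with 53.6 to 240.98 CPM of Myh11, all fell in cluster 0 of pool A. Without them and 4 further wells with platelet or erythroid markers, the smooth muscle-like sums had 136.8 and 185.98 CPM of Apoe. The log2 fold changes of Apoe remained called there. Among smooth muscle-like clusters, Apoe ranged from 68.8 to 490 CPM in pool A and from 72.04 to 206.9 CPM in pool B. Cluster 3 was highest in both pools, from 24 cells in pool A, but in pool B cluster 1 was nearly equal at 202.96 CPM. The leading genes of cluster 3 include Vtn and Lgals3. At resolution 1.0 a pericyte-like cluster of 4 and 2 cells, also led by Vtn, was set apart from the smooth muscle-like class. The log2 fold change of Apoe over fibroblast-like cells was then -3.46 in place of -3.29. The part of those cells in the Apoe level of cluster 3 was not tested. The genes most like Apoe across cells were Ly6e (r = 0.42), Dcn (0.38) and Serpinf1 (0.36), all of which had helped to form the classes.

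Apod, a lipocalin that carries small lipophilic molecules, was likewise low outside fibroblast-like cells. It had 1.92 and 0.467 CPM in the smooth muscle-like, 221.6 and 285.8 CPM in the fibroblast-like and 0.298 and 0.474 CPM in the endothelial-like sums, the last from 1 count in each pool. Fibroblast-like pools lie far above all others. In pool A, 1 smooth muscle-like cell held 68.9% of the class's Apod counts, and without it that pool had 0.60 CPM. The log2 fold change was -8.07 ± 0.68 for smooth muscle-like over fibroblast-like cells (edgeR adjusted p = 5.0e-05) and 9.62 ± 1.12 for fibroblast-like over endothelial-like cells (adjusted p = 0.0054), both called in all 11 alternatives. The ratio of fibroblast-like to endothelial-like CPM was 743 (exact 95% counting interval 133.2 to 29369) in pool A and 603 (107.99 to 23833) in pool B.

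Within the fibroblast-like class Apod marked a minority and Abca8a most cells. Apod reached 100 CPM in 10 of 39 and 9 of 28 fibroblast-like cells, and the highest cell held 30.3% and 30.6% of the counts. Every one of these 19 cells also had 100 CPM or more of Abca8a, which the class reached in 34 of 39 and 18 of 28 cells. Across the cells of all classes Abca8a was the gene most like Apod (r = 0.53), followed by Dpep1 (0.53) and Podn (0.52). Within the 39 fibroblast-like cells of pool A alone, the Pearson r of Abca8a with Apod was 0.12 (Spearman 0.033). Apoe did not reach 100 CPM in every Apod cell. In pool A, Apoe reached 100 CPM in 5 of 10 Apod cells and 22 of 29 others, and the Pearson r of log2(CPM + 1) was -0.45 (Spearman -0.45) over 39 cells, a description of cells that share 1 plate and its depth. In pool B it reached 100 CPM in 8 of 9 Apod cells and 17 of 19 others. The difference in shares of pool A was not seen in pool B, where 25 of 28 cells reached 100 CPM of Apoe, leaving little room for one. Whether the correlation held in pool B was not tested, since 28 cells were too few for the minimum of 30 set for it.

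**Figure D2:**
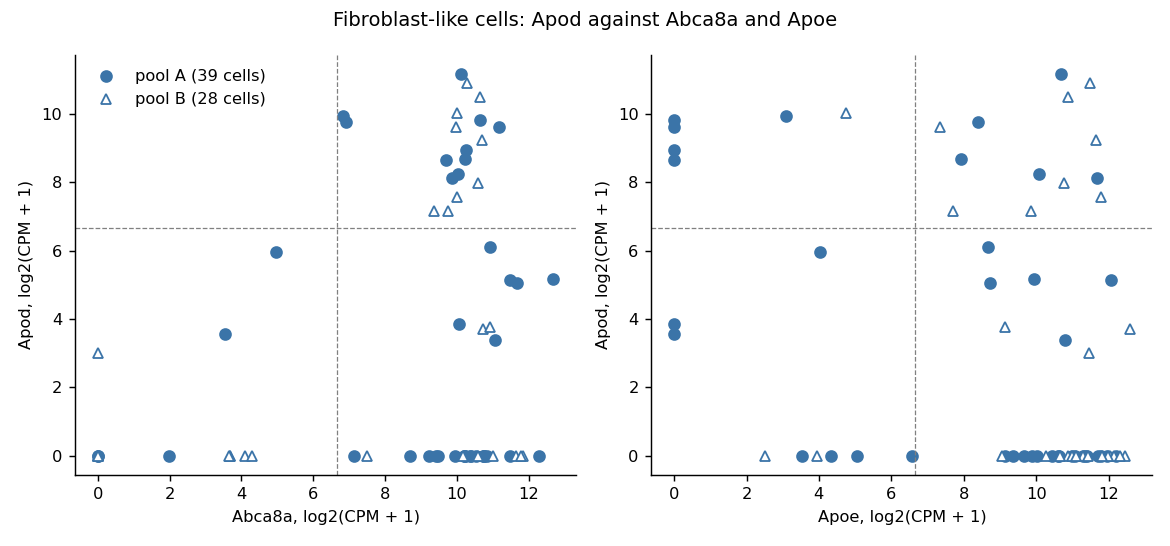
Each point is a fibroblast-like cell of pool A (filled circles, 39 cells) or pool B (open triangles, 28 cells), with Apod in log2(CPM + 1) against Abca8a on the left and Apoe on the right. Dashed lines are at 100 CPM; the upper left field of the Abca8a plot is empty, while the Apoe plot has Apod cells on both sides of the line.

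Plin2, which coats lipid droplets in most cell types, was highest in endothelial-like cells. It had 46.5 and 48.7 CPM in the smooth muscle-like, 33.1 and 29.5 CPM in the fibroblast-like and 210.5 and 170.2 CPM in the endothelial-like sums, and the pools of the 3 classes do not overlap. The log2 fold change of -2.53 ± 0.53 for fibroblast-like over endothelial-like cells was called (edgeR adjusted p = 0.0469) and lost in 3 of 11 alternatives, with adjusted p up to 0.107. For smooth muscle-like over endothelial-like cells it was -2.07 ± 0.52 (adjusted p = 0.0781), and for smooth muscle-like over fibroblast-like cells 0.54 ± 0.59 (adjusted p = 0.691). At least 100 CPM was seen in 14.7% and 19.3% of smooth muscle-like cells, in 3 of 39 and 2 of 28 fibroblast-like cells and in 7 of 16 and 5 of 11 endothelial-like cells. In fibroblast-like cells 1 cell of each pool held 44.3% and 39.8% of the counts, and without these the mean was 18.9 CPM in place of 31.3 CPM. In pool B, 1 endothelial-like cell held 48.7% of the counts, and without it that pool had 101.6 CPM. The 4 smooth muscle-like clusters lay between 38.5 and 58.8 CPM in both pools.

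Scd2, a stearoyl-CoA desaturase that makes monounsaturated fatty acids, differed between the pools in every class. It had 116.4 and 43.7 CPM in the smooth muscle-like, 163.1 and 32.7 CPM in the fibroblast-like and 5.07 and 39.8 CPM in the endothelial-like sums. Pool A exceeded pool B 2.66 times in smooth muscle-like and 4.98 times in fibroblast-like cells, and the same order held in all 4 smooth muscle-like clusters, at 109.05 to 133.1 CPM in pool A and 36.9 to 57.5 CPM in pool B. With 1 pool on each side this has no test, and mice and plate cannot be told apart. In endothelial-like cells of pool B, 1 cell held 97.6% of the counts, and without it the level was 1.03 CPM. No comparison of classes was called, with log2 fold changes of -0.11 ± 0.39 for smooth muscle-like over fibroblast-like, 1.45 ± 1.30 for smooth muscle-like over endothelial-like and 1.81 ± 1.37 for fibroblast-like over endothelial-like cells (edgeR adjusted p = 0.921, 0.584 and 0.519). The genes most like Plin2 (Ceacam1, Ablim3 and Car4, r of 0.22, 0.22 and 0.21) and Scd2 (Spsb1, Anxa1 and Morf4l2, r of 0.21, 0.18 and 0.18) followed them only loosely; Ceacam1, Car4 and Anxa1 had helped to form the classes.

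**Figure D3:**
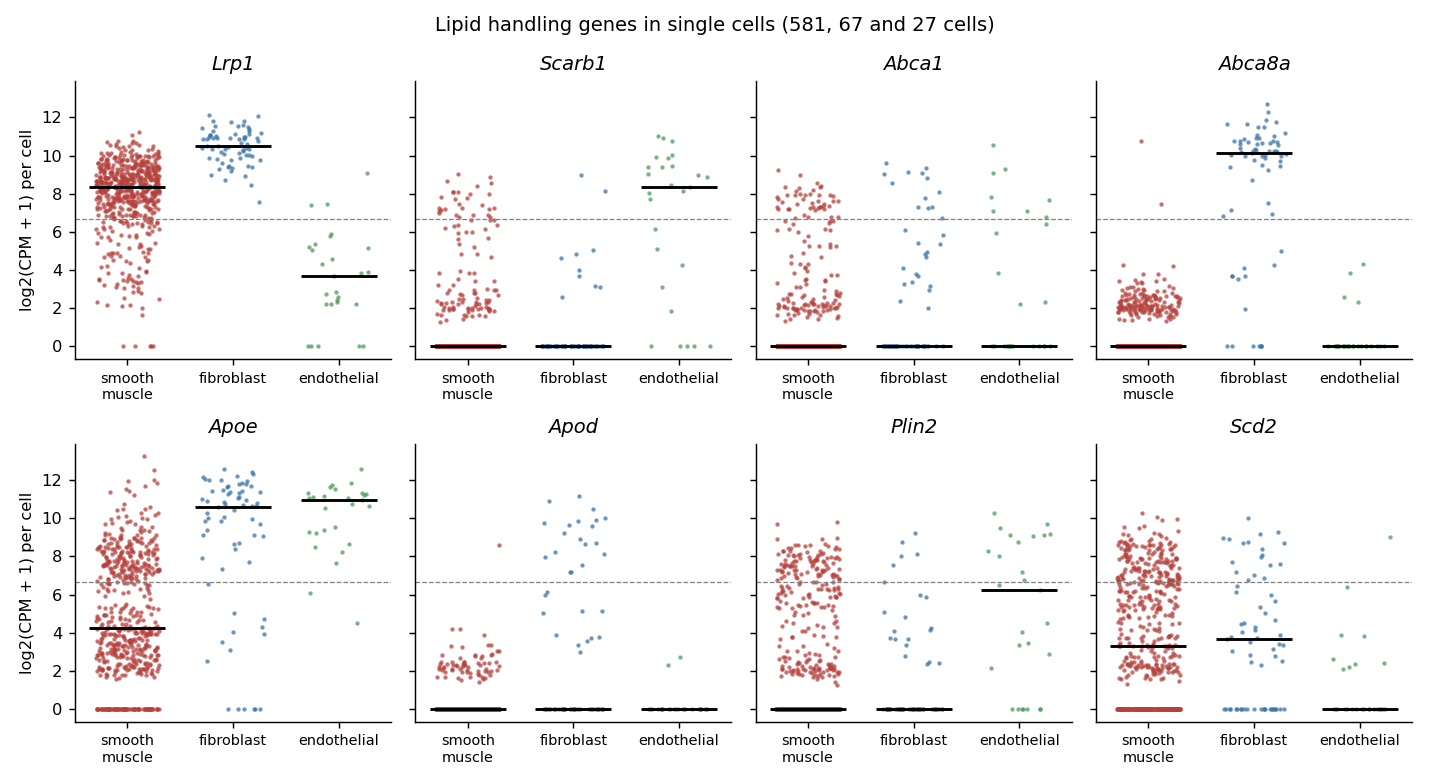
Each point is a cell, in log2(CPM + 1), for smooth muscle-like (581 cells), fibroblast-like (67) and endothelial-like (27) cells from left to right; black bars are medians and the dashed line is at 100 CPM. Lrp1 lies above the line in all 67 fibroblast-like cells, while most Apoe values of smooth muscle-like cells lie below it with a tail up to 9684 CPM.

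**Figure D4:**
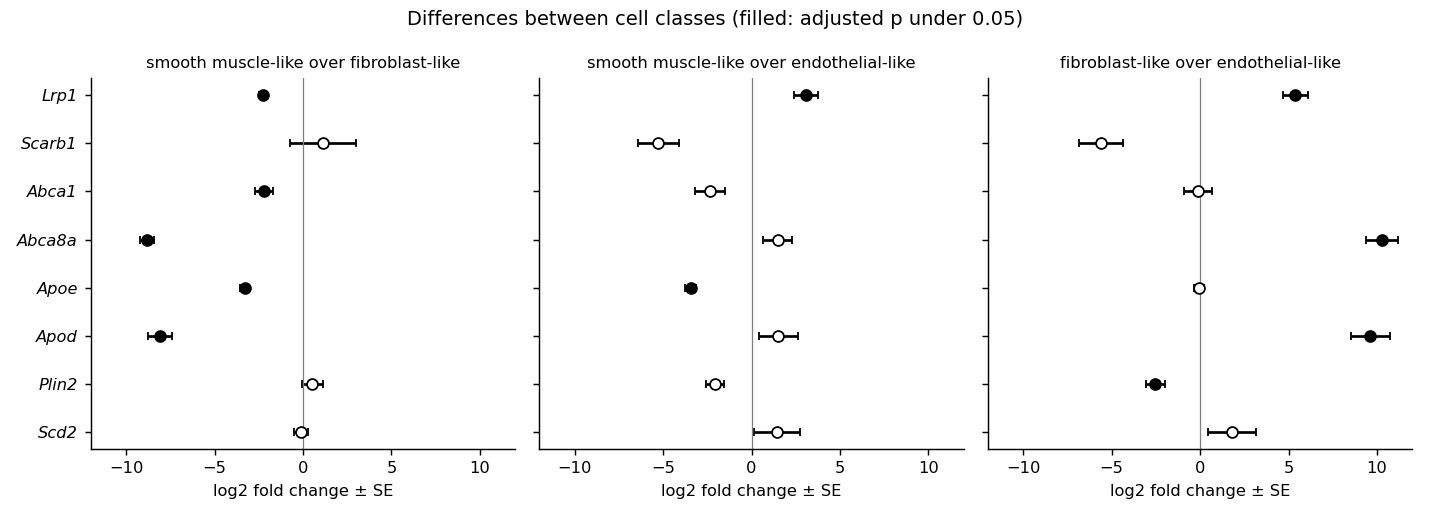
Log2 fold change with its SE (2 pools per class) for the 8 genes in the 3 comparisons; filled points have an edgeR adjusted p under 0.05. In smooth muscle-like against fibroblast-like cells all 5 filled points lie left of 0.

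Set on a common scale per kilobase of merged exons, Apoe had the highest summed level of the 8 in every class. It stood at 83.6 ± 4.8 CPM per kb in smooth muscle-like, 806.6 ± 291.1 in fibroblast-like and 896.5 ± 291.2 in endothelial-like cells (SD, n = 2 each). By sums the next in smooth muscle-like cells was Lrp1, at 22.3 ± 1.2 CPM per kb, then Scd2 (14.7 ± 9.4) and Plin2 (13.6 ± 0.5). Medians over smooth muscle-like cells had the other order, with 0.0052 counts per base of Lrp1 and 0.0023 of Apoe. In fibroblast-like cells the next were Abca8a (184.2 ± 22.5), Lrp1 (103.1 ± 19.5) and Apod (98.5 ± 17.6). In endothelial-like cells they were Scarb1 (54.7 ± 22.6) and Plin2 (54.2 ± 8.1), whose levels differed by less than their spread. Cells differed in depth, so shares were also read after thinning every cell to 20000 counts, which can only lower a share. For Abca8a the share of cells with any count then fell to 3.53% and 1.86% in smooth muscle-like cells, against 27.6% and 28.996% before thinning, and to 89.7% and 64.3% in fibroblast-like cells, against 94.9% and 82.1%.

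Among the 10 leading genes of the smooth muscle-like clusters other types' markers outnumber smooth muscle markers in cluster 0 (Tpsb2 and Cpa3, genes of mast cells), cluster 2 (Rgs5) and cluster 3 (Vtn), and cluster 1 is led by the cardiac muscle genes Tnnt2 and Myh6, so the 4 are also given by number. In each of clusters 0 to 3 and in both pools, Lrp1, Abca1, Abca8a, Apoe and Apod lay below both fibroblast-like pools. The highest of these 8 sums was 25.7 CPM for Abca1, 8.38 CPM for Abca8a and 3.71 CPM for Apod. Only the 2 largest of the 4 smooth muscle-like clusters were tested against each other, and clusters 2 and 3 were in no such test. That test set cluster 1 (62 and 93 cells) over cluster 0 (44.6% of the class in pool A and 10.8% in pool B). None of the 8 was called and 0 of 7589 genes were called (0%) by edgeR, where 3.06% had an unadjusted p under 0.05 and DESeq2 called 22. The 8 log2 fold changes lay between -1.69 (Apod) and 1.13 (Abca1), each with an edgeR adjusted p of 0.9995.

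Counts of called genes in the lists that follow are to be read against the shares over all tested genes. The lists, too, were chosen with earlier results known and include the 8 genes, so a count above these shares is a description only. These were 3.38% higher and 3.93% lower for smooth muscle-like against fibroblast-like, 2.37% and 2.75% for smooth muscle-like against endothelial-like, with 2.31% and 2.16% where fibroblast-like were set against endothelial-like cells. Other genes of lipoprotein uptake were divided between the classes. Of 20 listed receptors, chaperones and regulators 15 were tested, and smooth muscle-like cells had more Sorl1 and Sort1, sorting receptors of the endosome, and less Lrp1 than fibroblast-like cells. Sorl1 had 483.8 and 294.4 CPM in the smooth muscle-like, 66.4 and 45.2 CPM in the fibroblast-like and 7.16 and 13.7 CPM in the endothelial-like sums, with log2 fold changes of 2.72 ± 0.29 over fibroblast-like (edgeR adjusted p = 0.00021) and 5.12 ± 0.63 over endothelial-like cells (adjusted p = 0.0060). Cd36, a receptor for fatty acids and oxidized lipoprotein, had 7.98 and 7.80 CPM in the smooth muscle-like, 5.85 and 5.75 CPM in the fibroblast-like and 4340 and 4161 CPM in the endothelial-like sums. Against endothelial-like cells, 2 genes of this list were called higher in smooth muscle-like cells and 3 lower (Cd36, Stab1 and the regulator Mylip). Fibroblast-like over endothelial-like cells gave 1 higher call (Lrp1) and 2 lower (Cd36 and Stab1). The median log2 fold change of the tested genes of this list was 0.24 for smooth muscle-like over fibroblast-like cells, against 0.29 over all tested genes.

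All 17 listed efflux, lysosomal and ABCA transporters were tested, and 5 were lower in smooth muscle-like than in fibroblast-like cells, with none called higher (3.93% and 3.38% of all tested genes). Beside Abca1 and Abca8a these were Abca8b, Abca9 and Npc2, the lysosomal cholesterol carrier. Abca8b had 1.03 and 0.308 CPM in smooth muscle-like and 149.9 and 170.2 CPM in fibroblast-like cells, a log2 fold change of -8.16 ± 0.67 (edgeR adjusted p = 4.4e-05). Abca9 had 0.522 and 2.78 CPM in smooth muscle-like and 85.9 and 148.2 CPM in fibroblast-like cells, a log2 fold change of -6.59 ± 0.65 (adjusted p = 0.00013). Abca8a, Abca8b and Abca9 are close relatives, so the counting may have divided reads among them and their separate levels are uncertain. Fibroblast-like cells also exceeded endothelial-like cells in 4 of the 17, namely Abca2, Abca8a, Abca9 and Npc2. The list's median log2 fold change was -1.12 for smooth muscle-like over fibroblast-like cells (0.29 over all genes) and 2.06 for fibroblast-like over endothelial-like cells (0.17 over all genes).

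Of 21 apolipoproteins and lipoprotein remodelling genes 13 were tested. Smooth muscle-like cells had less Apoe, Apod, Pltp, Lpl and Angptl4 and more Clu than fibroblast-like cells. Clu, which encodes clusterin or apolipoprotein J, had 1849 and 1814 CPM in the smooth muscle-like, 327.1 and 321.3 CPM in the fibroblast-like and 597 and 823 CPM in the endothelial-like sums, with a log2 fold change of 2.43 ± 0.21 over fibroblast-like cells (edgeR adjusted p = 5.1e-05) and 1.30 ± 0.28 over endothelial-like cells (adjusted p = 0.0456). Angptl4, an inhibitor of lipoprotein lipase, had 9.27 and 7.91 CPM in the smooth muscle-like, 347.8 and 164.4 CPM in the fibroblast-like and 305.4 and 180.2 CPM in the endothelial-like sums. Against endothelial-like cells 1 of 13 was higher in smooth muscle-like cells (Clu) and 5 were lower (Apoe, Pltp, Lpl, Gpihbp1 and Angptl4). Gpihbp1 had 2.12 and 1.16 CPM in the smooth muscle-like, 1.05 and 2.00 CPM in the fibroblast-like and 1634 and 1302 CPM in the endothelial-like sums.

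Among lipid droplet and ester genes 14 of 17 were tested, and Plin4, Cidea, Pnpla2 and Mgll were higher and G0s2, an inhibitor of the lipase Pnpla2, lower in smooth muscle-like than in fibroblast-like cells. Plin4 had 255.2 and 137.98 CPM in the smooth muscle-like, 49.6 and 39.5 CPM in the fibroblast-like and 4.77 and 10.4 CPM in the endothelial-like sums. Fibroblast-like cells were lower than endothelial-like cells in 4 of 13: Plin2, Pnpla2, Lipe and Mgll. Lipe, hormone-sensitive lipase, had 1 count in pool A and 0 in pool B of fibroblast-like cells, against 175.6 and 144.6 CPM in endothelial-like cells. Smooth muscle-like cells had more Plin4 and less Lipe and Mgll than endothelial-like cells. No call was made among 20 cholesterol synthesis genes or among the 13 or 14 tested genes of fatty acid synthesis in any of the 3 comparisons. The median of the synthesis genes was 1.18 for smooth muscle-like over fibroblast-like cells (0.29 over all genes) and 2.32 for smooth muscle-like over endothelial-like cells (0.34 over all genes). Of the sterol sensing list, Cyp27a1, which makes an oxysterol, was lower in smooth muscle-like than in fibroblast-like cells (11.5 and 9.42 CPM against 94.9 and 85.5 CPM). Pparg, a nuclear receptor for fatty acids, was lower than in endothelial-like cells in both other classes.

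**Figure D5:**
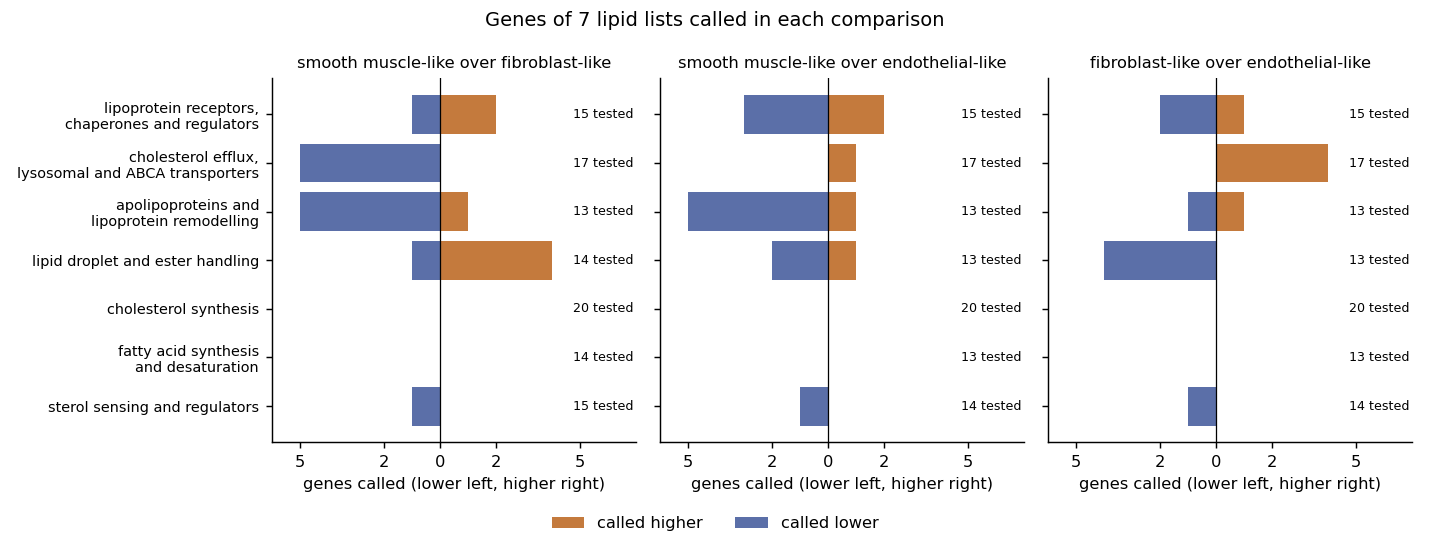
Number of genes of 7 lipid lists called in each comparison (edgeR adjusted p under 0.05), lower to the left of 0 and higher to the right, with the number tested. The 17 efflux, lysosomal and ABCA transporters give 5 lower calls and 0 higher ones for smooth muscle-like over fibroblast-like cells.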

How the data were processed

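The authors deposited raw counts per gene and cell; Subread, featureCounts, Bowtie2, Bowtie and bcl2fastq, with GRCm38 (mm10), are named in the submitters' processing notes, without versions or roles. No source used here says whether counting used strand; no exon of the 8 genes overlaps an exon of another gene except that of Mir5114 in Scd2. Symbols came from GENCODE M21; the 512 identifiers that had none made up 0.217% of all counts. A cell held 51886 to 713700 counts, and the minimum of 1000 genes and 20000 counts removed 0 cells. Smart-seq2 has no molecular identifiers, so intervals cover counting error only. No doublet caller was run.

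Cells were clustered on 23245 genes, which were 90 markers of 16 cell types and a hash-drawn set of other genes, and 23235 genes with the 8 members and all lipid lists were kept for testing. After scaling each cell to 10000 and taking logs, 2000 variable genes, 20 components and 15 neighbours gave Leiden clusters at resolution 0.5 (scanpy 1.11.5, leidenalg 0.10.2, seed 0). Clusters were named by the type with the most markers in the cluster's top 10 genes, given 3 or more markers at 100 CPM. The rule broke ties by the highest mean marker level relative to the other clusters. It named cluster 0 smooth muscle-like with 0 smooth muscle markers in its top 10 genes. By that rule clusters 2 and 3 would be pericyte-like on 1 leading marker each; since Myh11 stood at 3197 to 4416 CPM in clusters 0 to 3, a pericyte-like name on fewer than 2 leading markers was replaced by smooth muscle-like, a step added after the clusters were seen. The leading genes of cluster 0 include mast cell genes that come from few wells.

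Counts were summed per pool and class and fitted in edgeR 4.0.16 (R 4.3.3) with filterByExpr, TMM and the pool as a block, and p-values were adjusted by Benjamini-Hochberg over all tested genes. Smooth muscle-like and fibroblast-like sums were fitted alone, and comparisons with endothelial-like cells used all 6 sums. The pool is a block because its classes share mice and a title prefix read as the plate; pool A minus pool B differences correlated between classes with r of 0.176, 0.137 and 0.0435 over 7087 genes. SE is the fold change divided by the root of F. Named genes of the lipid lists are up to 4 per list and comparison with the smallest adjusted p among those called; others are named where a count of 5 or fewer is given. Like genes are the 3 with the highest mean r among 10412 genes at 10 CPM in both pools of a class. The members and lists were chosen with earlier results of these data known. Alternatives were DESeq2 1.42.0, RLE size factors, no filter, no block, other clusterings, deeper cells and single pools. Added after the data were seen were the first naming rule and endothelial-like cells under 1000 CPM of Rgs5. Also added then was exclusion of 9 wells with markers of other types or of the highest cell. Wells with 3 or more markers of a type at 100 CPM were excluded. The smooth muscle, fibroblast, endothelial, pericyte and cardiomyocyte lists were exempt from this. By the same measure, 55 of 67 fibroblast-like and 18 of 27 endothelial-like wells held smooth muscle markers. Of 581 smooth muscle-like wells, 68 held fibroblast and 225 held pericyte markers.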

Additional observations from a re-analysis of the deposited data

How the results depend on the processing

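With 2 pools and 27 endothelial-like cells the comparisons with that class have low precision. Calls of Abca8a, Apoe and Apod named above held in all 11 alternatives; those of Lrp1 against fibroblast-like cells and of Lrp1 in fibroblast-like over endothelial-like cells each held in 10 of 11, and the others were less stable as given beside them. Keeping only fibroblast-like cells found at both resolutions left the same 67 cells and is not counted among the 11. For smooth muscle-like over fibroblast-like cells 634 genes (7.31% of those tested) were called, against 1291 (14.9%) with DESeq2, 958 (7.25% of 13214) with no filter, 340 (3.92%) with no replicate block, where 4 of the 8 genes were called and Abca1 was not (adjusted p = 0.0694), 404 (4.73%) in deeper cells and 2.28% of 7095 in a fit on 6 sums, where 3 of the 8 were called and Lrp1 was not (adjusted p = 0.156). For smooth muscle-like over endothelial-like cells the share called was 5.12% of 7095, against 1283 genes (18.1%) with DESeq2 and 787 (5.90% of 13333) with no filter. Of the 8 genes 2 were called, against 5 with DESeq2, 4 with no filter, and 1 with no replicate block, at resolution 1.0, under the naming rule as first written or without wells with markers of other types. For fibroblast-like over endothelial-like cells it was 4.47% of 7095, against 1379 genes (19.4%) with DESeq2 and 791 (5.93%) with no filter. For cluster 1 over cluster 0 it was 0, against 22 genes (0.29%) with DESeq2 and 5 (0.041%) with no filter. The cause of these shifts was not tested. The replicate block changed no call of the 8 genes but those of Abca1 (smooth muscle-like over fibroblast-like), Lrp1 (smooth muscle-like over endothelial-like, adjusted p = 0.108 without it) and Scarb1 (fibroblast-like over endothelial-like, adjusted p = 0.0492 without it). The median log2 fold change of all tested genes was 0.34 with TMM and 0.13 with RLE for smooth muscle-like over endothelial-like cells, and 0.29 and 0.21 for smooth muscle-like over fibroblast-like cells.

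Signs that turned belong to differences not called. Clustering on all other genes, which put 39 cells in the endothelial-like class, gave -1.54 for Abca8a in smooth muscle-like over endothelial-like cells, and 0.17 for Abca1 and 0.20 for Apoe in fibroblast-like over endothelial-like cells, where deeper cells gave 0.30 and 0.090. Within single pools, with no test, Scarb1 and Scd2 ranged from -1.19 to 3.64 and from -0.53 to 0.32 for smooth muscle-like over fibroblast-like cells. For smooth muscle-like over endothelial-like cells Abca8a ranged from -0.28 to 3.56 and Apod from -0.10 to 2.41. For fibroblast-like over endothelial-like cells Abca1 ranged from -1.03 to 1.19 and Scd2 from -0.18 to 5.04. For cluster 1 over cluster 0 the ranges were -0.075 to 0.20 for Lrp1, -0.44 to 1.87 for Scarb1, -2.78 to 0.044 for Abca8a, -1.13 to 1.38 for Apoe and -0.76 to 0.30 for Scd2. In deeper cells Scd2 was called higher in smooth muscle-like (5.35, adjusted p = 0.0282) and fibroblast-like (5.55, adjusted p = 0.0268) than in endothelial-like cells.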
